A study of Mus musculus with 8 samples.

Results

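Transcripts of 45 imprinted genes were examined in whole testis. They lie outside the domains whose imprint is set by methylation in the male germ line, so their imprints, where known, come from the oocyte or arise after fertilisation. The genes were taken from a list by symbol. All 45 were found among the 54087 genes counted, 44 had at least 1 count in the 8 libraries, and 41 of them were among the 23353 genes that passed the filter on low counts.

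An imprinted gene is transcribed mainly from the copy inherited from 1 parent, because a differentially methylated region near it carries a methyl mark from egg or sperm. DNMT3A, with its partner DNMT3L, writes such marks in the germ line. In the testis the old marks are erased in fetal germ cells, so that male germ cells carry the egg-derived regions without methylation, whereas Sertoli, Leydig and other somatic cells keep the parental pattern. Many genes of this class act in growth, placenta, metabolism and behaviour, and several are strongly expressed in somatic cells of fetal and young organs.

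The animals were C57BL/6 males whose genotype was Dnmt3A WT/WT (WT) or Dnmt3A KO/KO (KO), sampled at 19 or 25 days post partum (dpp). Each of the 4 groups had 2 libraries. No treatment was given, and the labels do not say how the KO allele was made, in which cells it acts or which part of Dnmt3a it lacks. They also do not say that libraries came from separate animals, so p-values measure only the spread between these samples. All libraries are from 1 strain and the deposited values are totals per gene, so the parental copies were not measured separately and nothing below is a measurement of imprinting itself.

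Gene counts ranged from 22515812 to 50445334 per library. Levels are CPM, that is, counts brought to a common depth with the TMM factors of edgeR, which assume that most genes do not change, and 3 counts correspond to 0.0811 to 0.126 CPM. A gene was called where the edgeR quasi-likelihood test gave a Benjamini-Hochberg adjusted p under 0.05 over all 23353 genes. Dnmt3a itself was between 112 and 147 CPM at 19 dpp and between 48.7 and 76.8 CPM at 25 dpp, with log2 differences of KO against WT of −0.35 (adjusted p = 0.201) and 0.28 (adjusted p = 0.204). Because the deleted part is unknown, its level checks no label.

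Marker genes of several cell types differed by genotype, and their values stand beside those of the imprinted genes. The summed level of 23 Sertoli cell markers was 6460 to 7060 CPM in WT and 11500 to 12800 CPM in KO at 19 dpp, and 3330 to 4200 CPM in WT and 9180 to 10900 CPM in KO at 25 dpp. For 16 spermatocyte markers the sums were 2630 to 4190 CPM in WT and 425 to 762 CPM in KO at 19 dpp, and 10500 to 12600 and 2600 to 3760 CPM at 25 dpp. For 15 spermatid markers they were 1070 to 4540 CPM in WT at 25 dpp and at most 47.4 CPM in every other library, with Prm1, Prm2 and Tnp2 without counts in the other 3 groups. Of the Sertoli markers, 16 rose in KO at 19 dpp and 20 at 25 dpp; all 16 spermatocyte markers fell at 19 dpp, and at 25 dpp 10 fell and Dmc1 rose (1.69 log2). Spermatogonial markers went the other way at 25 dpp, with 8 of 14 markers of undifferentiated cells up and 2 down in KO (median 0.98 log2) and 7 of 8 markers of differentiating cells up and 1 down (median 1.28 log2). Of 9 endothelial markers 3 rose at 19 dpp (median 0.87 log2), and 1 rose and 1 fell at 25 dpp. In bulk tissue fewer cells of a type and less RNA per cell cannot be told apart. Each fold change is therefore also given, where it matters, relative to the summed Sertoli markers (called Sertoli-scaled below). This scaling lowers the median of all tested genes by 0.81 log2 at 19 dpp and by 1.42 log2 at 25 dpp. The sum is weighted toward Clu and Ctsl, which made up 4941 and 2022 of 10900 CPM in the first KO library at 25 dpp. They rose by 1.75 and 1.56 log2 at 25 dpp, against a median of 1.23 log2 over the 23 markers, so small Sertoli-scaled values depend on this weighting.

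**Figure D1:**
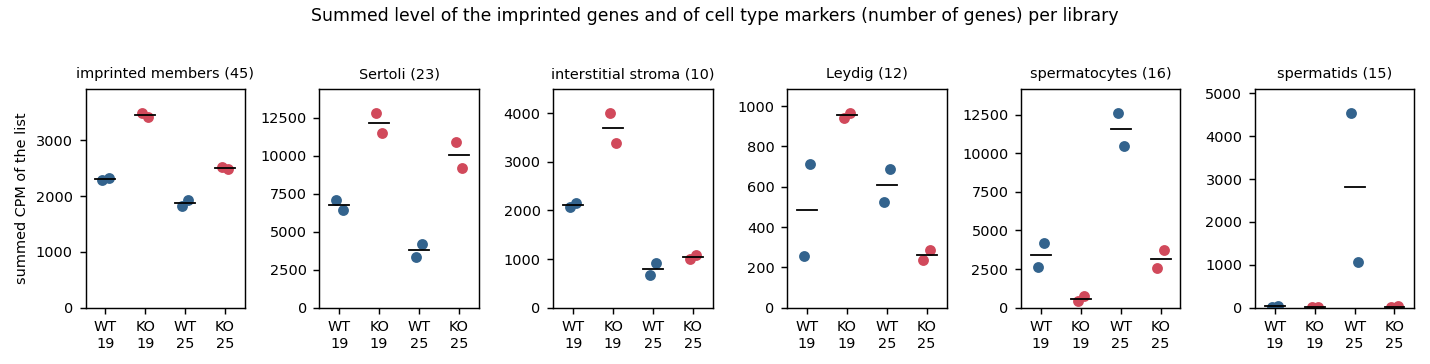
Summed CPM of the 45 imprinted genes and of 5 marker lists in each of the 8 libraries (points, with the group mean as a line; genotype and age in dpp along the x axis). The imprinted genes and the Sertoli markers are higher in KO than in WT at both ages, while spermatocyte markers are lower and spermatid markers are high only in WT at 25 dpp.

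At 19 dpp the imprinted genes as a group lay above WT in KO on the TMM scale and below it when Sertoli-scaled. Of the 41 tested, 11 rose and 2 fell in KO, where 8.80% of all tested genes rose and 13.2% fell. Their median log2 fold change was 0.26, against 0.00 over all genes. The risers were Peg10, Ppp1r9a, Igf2r, Gnas, Zim1, Mest, Ndn, Plagl1, Cd81, Osbpl5 and H13, and the fallers Nespas and Copg2. Both KO libraries lay above both WT libraries for 21 genes and below them for 6, where 32.7% and 33.8% of all tested genes did so. Sertoli-scaled, 0 rose by edgeR (0 at an unadjusted p under 0.05) and 11 fell, with a median of −0.59. Over all genes 0.351% were then up and 40.9% down. The Wald test of DESeq2, on its own size factors, called 14 up (3380 over all genes).

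The 19 dpp calls depended on single libraries, for the imprinted genes as for all genes. Without the first KO library at that age edgeR called 0 of all tested genes in either direction and so 0 of the 41, of which 14 had an unadjusted p under 0.05 (5256 of all genes), so every 19 dpp call named below was lost without that library. Leaving out the second KO library gave 4 risers (505 over all genes), the first WT library 6 (1319) and the second WT library 4 (608). The fallers numbered 0 without the second WT library (1350 over all genes), with 2 at an unadjusted p under 0.05, and 1 without the second KO library or either KO library at 25 dpp.

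At 25 dpp, 18 of the 41 rose in KO and 6 fell, where 63.5% of all tested genes were called, 26.1% up and 37.4% down. Their median log2 fold change was 0.66, against −0.12 over all genes. The WT and KO libraries did not overlap with KO above in 23 genes and with KO below in 12, against 38.5% and 46.1% of all genes. With total counts as scaling 22 rose and 3 fell (38.5% and 30.4% of all genes), whereas Sertoli-scaled 3 rose and 20 fell, with a median of −0.74 and with 1.08% and 69.1% of all genes called up and down. The 3 that stayed called up were Zim1, Igf2r and Peg3. Without the first KO library at 25 dpp 13 genes rose and 3 fell (4365 and 6854 over all genes). The calls lost without it were those of Sgce, Snrpn, Mkrn3, Cdkn1c, Kcnq1, Cd81, Nap1l4 and H13. Without the second KO library they were those of Sgce, Snrpn, Ndn, Mkrn3, Kcnq1 and Cd81. Without the first WT library at 25 dpp they were those of Sgce, Mkrn3, Kcnq1 and H13, and without the second those of Snrpn, Cdkn1c and H13. Kcnq1 and H13 were also lost without 1 or other library at 19 dpp, and over all these fits the adjusted p of the lost calls ran from 0.0516 to 0.397.

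The genes were also grouped by the allele from which each is usually expressed where it is imprinted. That can be limited to certain tissues, as for Ube3a in neurons, and which genes are imprinted in testis was not measured. By these classes, the calls on the TMM scale at 25 dpp were spread as follows. Of 20 paternally expressed genes tested, 11 rose and the other 9 were not called, with a median of 0.82 log2. Of 19 maternally expressed genes, 6 rose and 6 fell, with a median of −0.06 log2. Over all tested genes 26.1% rose and 37.4% fell at that age. At 19 dpp 4 paternally expressed genes rose and 1 fell, and 6 maternally expressed genes rose and 1 fell, with medians of 0.61 and 0.18. Over all tested genes 8.80% then rose and 13.2% fell. Sertoli-scaled, the medians were −0.23 for paternally and −0.65 for maternally expressed genes at 19 dpp, and −0.59 and −1.49 log2 at 25 dpp. There 1 paternally and 2 maternally expressed genes rose at 25 dpp and 6 and 12 fell, against 1.08% and 69.1% of all tested genes. The spread of calls thus depends on the scaling. The difference between the classes was not tested.

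**Figure D2:**
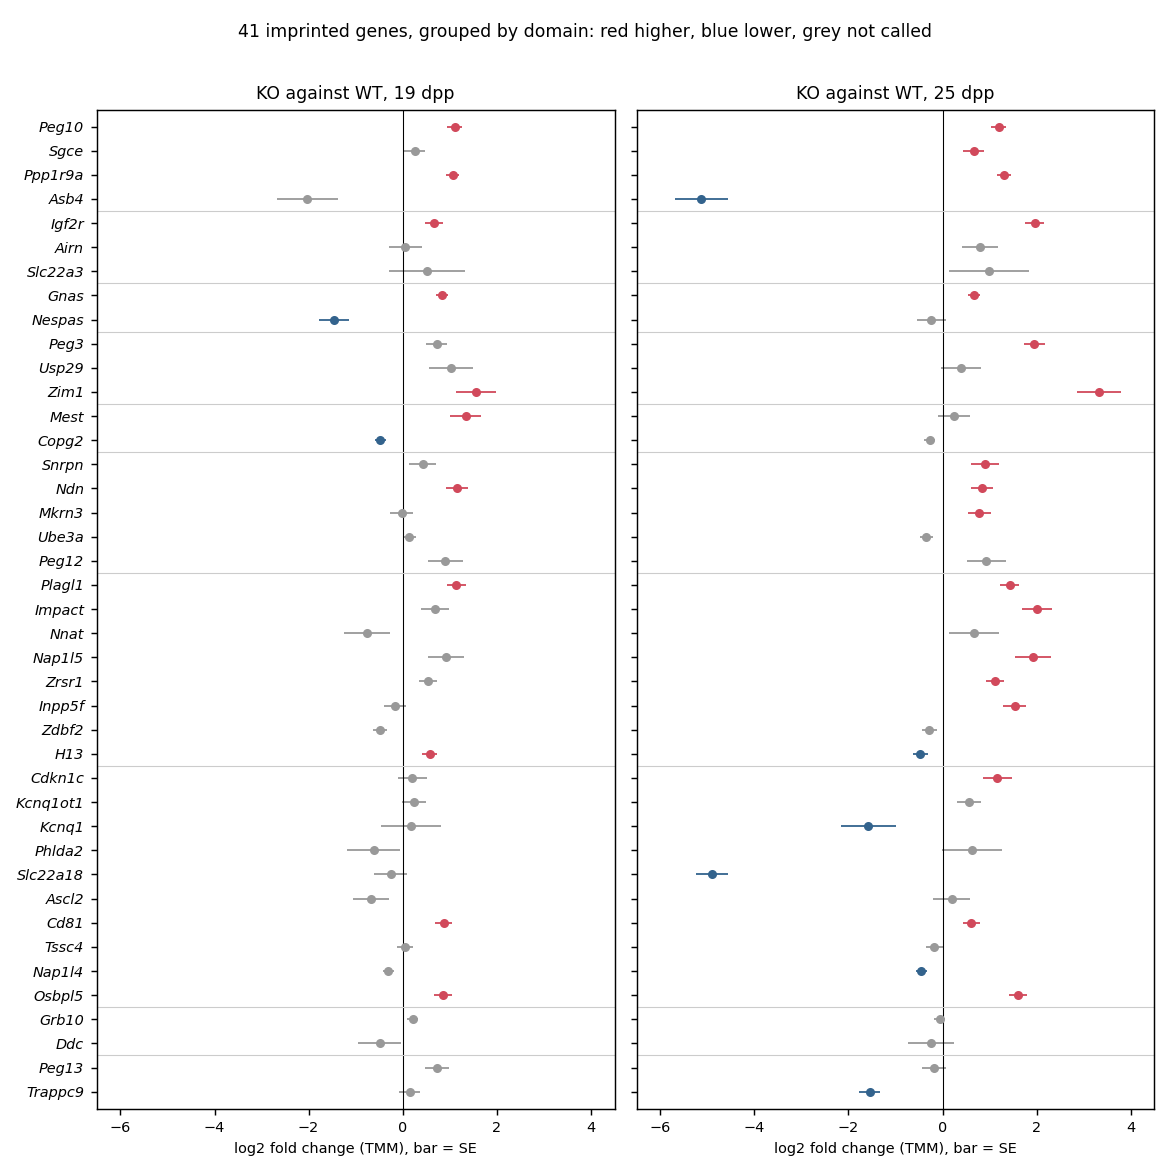
Log2 fold change of KO against WT on the TMM scale for the 41 tested imprinted genes, grouped by domain, at 19 dpp (left) and 25 dpp (right); bars are SE of the edgeR fit, red is called higher, blue called lower and grey not called. Most points lie to the right of 0, and Asb4 and Slc22a18 stand far to the left at 25 dpp.

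The Peg3 domain held the gene with the largest rise among the 41 at 25 dpp. Peg3 (chr7:6703892-6730431, minus strand, mm10) encodes a zinc finger protein and is usually paternally expressed. Its level was 148 and 115 CPM for WT against 238 and 198 CPM for KO at 19 dpp, and 38.3 and 52.9 CPM for WT against 201 and 151 CPM for KO at 25 dpp. The groups did not overlap at either age, and the level in KO at 25 dpp lay near the KO level at 19 dpp while WT had dropped. The fold change was 0.73 ± 0.22 log2 (SE) at 19 dpp, which was not called (adjusted p = 0.0538), and 1.95 ± 0.23 log2 at 25 dpp (adjusted p = 0.000515). Zim1 (chr7:6671269-6696450, minus strand), a maternally expressed zinc finger gene next to it, was at 18.8 and 10.1 CPM for WT against 43.5 and 41.5 CPM for KO at 19 dpp, and at 0.981 and 1.99 CPM for WT against 18.5 and 11.1 CPM for KO at 25 dpp. Every KO library exceeded the WT libraries of its age, by 1.55 ± 0.42 log2 at 19 dpp (adjusted p = 0.0373) and 3.32 ± 0.47 log2 at 25 dpp (adjusted p = 0.00101). Sertoli-scaled, the rise at 25 dpp was 1.91 log2 for Zim1 and 0.53 log2 for Peg3. Usp29, a ubiquitin protease gene that starts beside Peg3 on the other strand, stayed between 0.316 and 1.03 CPM and was not called.

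Promoter windows of 300 bases (250 before and 50 after a RefSeq start, GRCm38.p6) were available for 36 of the 45 genes, as 51 distinct windows. They held a median of 15 CpG, with a range of 1 to 48, against 7 over all 32817 windows in the same table. The hexamer TGCCGC, the core of the methylated motif bound by the imprint-protecting factor ZFP57, was present on either strand in 25.5% of the 51 windows and in 11.6% of all. The cyclic AMP response element TGACGTCA was present in 5.88% against 1.79%, and GCCATNTT, the YY1 motif, in 3.92% against 6.04%, both strands searched. Taking the window richest in CpG for each gene, the 14 that rose at 25 dpp had a median of 18.5 CpG, the 3 that fell 8, and the 15 tested but not called 17. A match describes letters and not a bound site. TGCCGC and TGACGTCA each hold a CpG, and their shares were not compared between windows of equal CpG content. Some windows overlap, as those of Mest with TGCCGC and those of Peg3 and Usp29 with TGACGTCA, and were counted separately. The windows of 4 genes with large changes at 25 dpp are printed 5′ to 3′ on the gene's strand, Peg3 and Zim1 which rose and Slc22a18 and Asb4 which fell. Capitals mark TGACGTCA in Peg3, TGCCGC (here as its reverse complement) in Zim1, and every CpG in Slc22a18 and Asb4.
Peg3: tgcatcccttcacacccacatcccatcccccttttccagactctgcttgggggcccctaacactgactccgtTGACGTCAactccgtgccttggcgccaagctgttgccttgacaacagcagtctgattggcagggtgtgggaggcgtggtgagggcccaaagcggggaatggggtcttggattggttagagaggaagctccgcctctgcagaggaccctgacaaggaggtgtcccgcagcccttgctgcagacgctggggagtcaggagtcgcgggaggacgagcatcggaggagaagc
Zim1: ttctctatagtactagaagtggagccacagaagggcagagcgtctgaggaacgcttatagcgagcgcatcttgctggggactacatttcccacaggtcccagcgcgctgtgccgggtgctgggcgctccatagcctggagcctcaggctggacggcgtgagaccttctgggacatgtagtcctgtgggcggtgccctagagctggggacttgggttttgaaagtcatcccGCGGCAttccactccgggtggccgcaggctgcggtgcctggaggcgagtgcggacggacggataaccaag
Slc22a18: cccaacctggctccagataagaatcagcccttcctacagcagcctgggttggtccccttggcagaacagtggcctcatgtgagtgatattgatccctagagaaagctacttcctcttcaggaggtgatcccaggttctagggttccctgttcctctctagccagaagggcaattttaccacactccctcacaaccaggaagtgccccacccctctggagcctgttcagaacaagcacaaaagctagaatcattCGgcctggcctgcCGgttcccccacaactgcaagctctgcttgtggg
Asb4: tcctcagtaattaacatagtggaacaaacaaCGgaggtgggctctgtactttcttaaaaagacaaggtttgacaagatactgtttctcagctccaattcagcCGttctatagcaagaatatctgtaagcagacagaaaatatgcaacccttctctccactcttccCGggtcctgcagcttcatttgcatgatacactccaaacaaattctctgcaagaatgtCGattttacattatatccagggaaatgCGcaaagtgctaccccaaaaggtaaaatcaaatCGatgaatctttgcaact
The windows are chr7:6730370-6730669 (minus) for Peg3, chr7:6696383-6696682 (minus) for Zim1, chr7:143473539-143473838 (plus) for Slc22a18 and chr6:5383136-5383435 (plus) for Asb4. The Peg3 and Zim1 windows hold 13 and 20 CpG, and those of Slc22a18 and Asb4 hold 2 and 6. The Peg3 window shares 263 bases with that of Usp29, whose start is 164 bases away on the other strand, and the marked element is the same in both.

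In the Igf2r domain the receptor gene rose at both ages. Igf2r (chr17:12682406-12769664, minus strand) encodes the receptor that carries insulin-like growth factor 2 to the lysosome. Its level was 124 and 104 CPM for WT against 172 and 186.5 CPM for KO at 19 dpp, then 40.4 and 58.8 CPM for WT against 202 and 184 CPM for KO at 25 dpp. Every KO library lay above every WT library, and only WT dropped with age. The fold change was 0.65 ± 0.19 log2 at 19 dpp (adjusted p = 0.0455) and 1.96 ± 0.20 log2 at 25 dpp (adjusted p = 0.000351). Sertoli-scaled it was −0.18 and 0.56 log2 (adjusted p = 0.484 and 0.0273). The 19 dpp call was lost with total counts as scaling, with a replicate block and without any 1 of several libraries. Airn, the long noncoding RNA that crosses Igf2r on the other strand and silences it on the paternal copy in somatic tissue, had 1.29 to 1.80 CPM at 19 dpp and 0.436 to 0.816 CPM at 25 dpp. It was not called between genotypes at 19 dpp (0.05 log2, adjusted p = 0.971) or 25 dpp (0.79 log2, adjusted p = 0.104), and in the annotation its exons share no base with those of Igf2r. Slc22a3, a cation transporter gene of the same domain, stayed between 0.0293 and 0.397 CPM, and its relative Slc22a2 had 3 counts in all.

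The Peg10 domain rose at its strongly expressed genes and fell at Asb4. Peg10 (chr6:4747306-4760517, plus strand), a placental gene derived from a retrotransposon, was at 198 and 223 CPM for WT against 440 and 463 CPM for KO at 19 dpp, and at 95.3 and 129 CPM for WT against 261 and 253 CPM for KO at 25 dpp. The genotypes were far apart and the libraries of a group close together. KO exceeded WT by 1.10 ± 0.16 log2 (adjusted p = 0.00789) and 1.20 ± 0.16 log2 (adjusted p = 0.000762), and by 0.26 and −0.20 log2 when Sertoli-scaled. Ppp1r9a, which encodes the actin-binding protein neurabin, rose by 1.06 ± 0.14 log2 at 19 dpp (adjusted p = 0.00755) and 1.31 ± 0.14 log2 at 25 dpp (adjusted p = 0.000422). Its counts were 0.995 to 1.15 times those of Peg10 in all 8 libraries, although 142399 bases separate the genes. The annotation used in the counting is not given, so whether the entries share a gene model was not tested, and they may not be separate risers. Sgce, the epsilon-sarcoglycan gene that starts next to Peg10, was not called at 19 dpp (0.26 log2, adjusted p = 0.453) and rose by 0.67 ± 0.22 log2 at 25 dpp (adjusted p = 0.0308). Sertoli-scaled, Ppp1r9a was at 0.22 log2 at 19 dpp and −0.090 log2 at 25 dpp, and Sgce at −0.74 log2 at 25 dpp.

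Asb4 (chr6:5383386-5433022, plus strand), which encodes a subunit of a ubiquitin ligase, ran the other way. It had 0.578 and 2.07 CPM for WT against 0.377 and 0.284 CPM for KO at 19 dpp, and 71.1 and 44.7 CPM in WT against 1.51 and 1.81 CPM in KO at 25 dpp. High levels were thus seen only in the 2 WT libraries at 25 dpp. The difference of −5.12 ± 0.57 log2 at 25 dpp was called (adjusted p = 0.000513), and that of −2.03 log2 at 19 dpp was not (adjusted p = 0.0637). Calcr, the calcitonin receptor gene, had 4 counts in all.

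At the Gnas locus the protein-coding gene and its antisense RNA differed in direction at 19 dpp on the TMM scale. Gnas (chr2:174284320-174346744, plus strand), which encodes the stimulatory G protein alpha subunit and several other transcripts, was at 372 CPM in both WT libraries and, for KO, at 692 and 627 CPM at 19 dpp, and at 200 and 239 CPM for WT against 346 and 354 CPM for KO at 25 dpp. KO lay above WT without overlap, by 0.83 ± 0.13 log2 (adjusted p = 0.00827) and 0.67 ± 0.13 log2 (adjusted p = 0.00288). Sertoli-scaled, the values were −0.019 and −0.74 log2. Nespas, the paternally expressed antisense RNA at the 5′ end of the locus, was at 9.09 and 9.28 CPM for WT against 2.35 and 4.29 CPM for KO at 19 dpp, and at 9.95 and 9.42 CPM for WT against 7.49 and 8.94 CPM for KO at 25 dpp. It was low only in KO at 19 dpp, with −1.46 ± 0.31 log2 (adjusted p = 0.0175), and was not called at 25 dpp (−0.24 log2, adjusted p = 0.514). Sertoli-scaled, Nespas was called lower at both ages, with −2.28 log2 (adjusted p = 0.00781) and −1.66 log2 (adjusted p = 0.00652). Of its exon bases, 31.4% lie opposite exons of Gnas, and since the strand setting of the counting is not given, reads of the 2 genes cannot be told apart there.

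Mest and Copg2, which overlap tail to tail over 912 exon bases, also moved in opposite directions at 19 dpp on the TMM scale. Mest, a paternally expressed gene of a hydrolase-like protein, was at 5.36 and 5.57 CPM for WT against 13.5 and 14.0 CPM for KO at 19 dpp. All 4 libraries at 25 dpp were low, with 1.25 and 2.52 CPM for WT against 2.19 and 2.27 CPM for KO. Mest rose by 1.33 ± 0.33 log2 at 19 dpp (adjusted p = 0.0279) and was not called at 25 dpp (0.24 log2, adjusted p = 0.557). Sertoli-scaled, Mest was not called at 19 dpp (0.49 log2, adjusted p = 0.263) and was lower at 25 dpp (−1.13 log2, adjusted p = 0.0184). The overlap covers 23.1% of the Mest exon bases, and without the strand setting reads there cannot be told apart from those of Copg2, which is far more abundant. Copg2, a coat protein subunit of transport vesicles, had 162 and 180 CPM for WT against 116.5 and 129 CPM for KO at 19 dpp. It fell by 0.48 ± 0.12 on the log2 scale at 19 dpp (adjusted p = 0.0303), with −0.27 log2 at 25 dpp (adjusted p = 0.0819). Sertoli-scaled, Copg2 was called lower at both ages (−1.32 and −1.69 log2).

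In the Snrpn domain 3 of 5 tested genes rose at 25 dpp, where 26.1% of all tested genes did. Ndn, which encodes the growth suppressor necdin, was at 21.4 and 18.7 CPM for WT against 47.0 and 42.2 CPM for KO at 19 dpp, and at 6.30 and 9.54 CPM for WT against 13.1 and 15.3 CPM for KO at 25 dpp. KO was above WT at both ages, by 1.15 ± 0.23 log2 (adjusted p = 0.0141) and 0.84 ± 0.23 log2 (adjusted p = 0.0144). Mkrn3, a ubiquitin ligase gene known for its part in the timing of puberty, was not called at 19 dpp (−0.03 log2) and rose by 0.78 ± 0.24 log2 at 25 dpp (adjusted p = 0.0242). Snrpn, a spliceosomal protein gene at 2.66 to 7.29 CPM, rose by 0.90 ± 0.30 log2 at 25 dpp (adjusted p = 0.0282). Sertoli-scaled at 25 dpp, Ndn was at −0.54, Mkrn3 at −0.62 and Snrpn at −0.55 log2. Ube3a, a ubiquitin ligase gene imprinted in neurons, was at 133 to 192 CPM and was not called at 19 dpp (0.14 log2, adjusted p = 0.513) or 25 dpp (−0.34 log2, adjusted p = 0.0551). Snurf had 0 counts in every library, but its exons lie wholly inside those of Snrpn on the same strand and the treatment of overlapping reads is not given, so this sets no limit on its level. Magel2 had 35 counts in all, and Peg12 stayed between 0.300 and 2.75 CPM.

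The Kcnq1ot1 domain contained both rises and falls. Osbpl5, a lipid transfer protein gene, was at 35.6 and 37.3 CPM for WT against 71.5 and 60.2 CPM for KO at 19 dpp, and at 13.1 and 17.8 CPM for WT against 46.0 and 47.9 CPM for KO at 25 dpp. KO exceeded WT by 0.85 ± 0.18 log2 (adjusted p = 0.0171) and 1.60 ± 0.19 log2 (adjusted p = 0.000483). Cd81, a tetraspanin gene, rose by 0.86 ± 0.18 log2 (adjusted p = 0.0162) and 0.61 ± 0.18 log2 (adjusted p = 0.0185). Cdkn1c, which encodes the cell cycle inhibitor p57, was not called at 19 dpp (0.20 log2, adjusted p = 0.69) and was at 4.96 and 3.98 CPM for WT against 11.2 and 8.84 CPM for KO at 25 dpp. That rise was 1.16 ± 0.31 log2 (adjusted p = 0.0125), and 30.7% of the Cdkn1c exon bases lie opposite another annotated RNA. Sertoli-scaled at 25 dpp, Osbpl5 was at 0.21, Cdkn1c at −0.29 and Cd81 at −0.79 log2.

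Slc22a18 (chr7:143473736-143499334, plus strand), a transporter gene between Cdkn1c and Phlda2, was high in a single group. It was at 0.449 and 0.603 CPM for WT against 0.461 and 0.426 CPM for KO at 19 dpp, and at 15.1 and 12.9 CPM for WT against 0.406 and 0.532 CPM for KO at 25 dpp. Both WT libraries at 25 dpp stood far above the other 6, which overlapped. The fall in KO at 25 dpp was −4.90 ± 0.34 log2 (adjusted p = 0.000308), with −0.26 log2 at 19 dpp. Nap1l4, a nucleosome assembly gene, was at 243 CPM in both WT libraries and, for KO, at 173 and 183 CPM at 25 dpp, a difference of −0.45 ± 0.11 log2 (adjusted p = 0.00872) that became 0.018 with total counts as scaling. Kcnq1, a potassium channel gene, fell by 1.57 ± 0.58 on the log2 scale at 25 dpp (adjusted p = 0.0448), a call that rested on a WT library at 1.99 CPM and was −0.64 log2 (adjusted p = 0.397) without it. The noncoding RNA Kcnq1ot1, which silences the domain on the paternal copy in somatic tissue, stayed between 13.6 and 27.1 CPM and was not called at 25 dpp (0.56 log2, adjusted p = 0.0848). Phlda2 was at 0.273 to 1.86 CPM, Ascl2 at 1.42 to 4.40 CPM and Tssc4 at 27.9 to 34.5 CPM, without a call between genotypes.

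**Figure D3:**
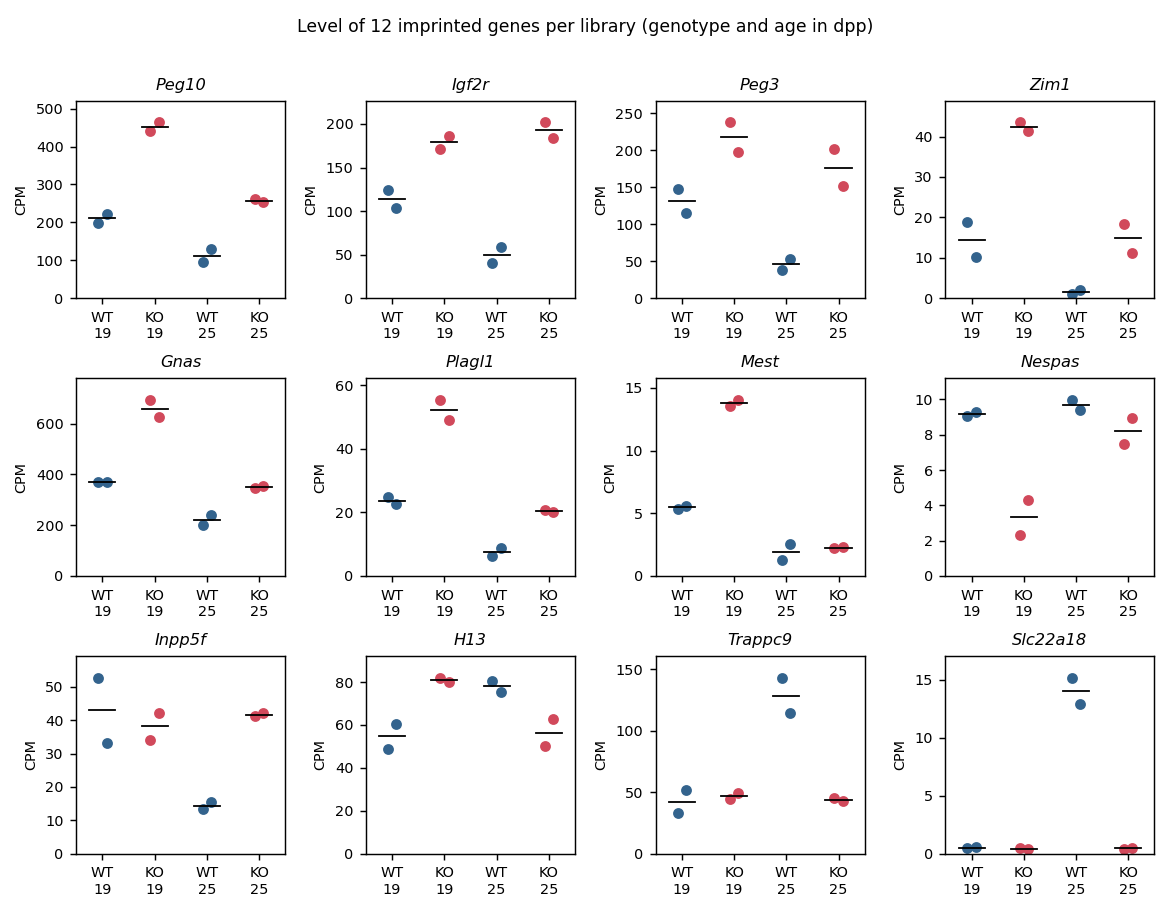
CPM of 12 imprinted genes in each of the 8 libraries (points, blue for WT and red for KO, with the group mean as a line), each panel on its own linear axis from 0. Igf2r, Peg3, Zim1 and Inpp5f drop with age in WT and are higher in KO than in WT at 25 dpp. Zim1 also drops with age in KO, and the Inpp5f groups overlap at the younger age. Slc22a18 and Trappc9 are high only in WT at 25 dpp.

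Among genes imprinted singly or in small domains, Plagl1 (chr10:13060504-13131694, plus strand), a zinc finger transcription factor gene, was at 24.9 and 22.6 CPM for WT against 55.3 and 49.1 CPM for KO at 19 dpp. At 25 dpp it was at 6.33 and 8.86 CPM for WT against 20.7 and 20.1 CPM for KO. KO exceeded WT in every library, by 1.14 ± 0.20 log2 (adjusted p = 0.0102) and 1.43 ± 0.20 log2 (adjusted p = 0.00091). Sertoli-scaled, Plagl1 was at 0.29 log2 and 0.03 log2, neither called. Impact, which encodes an inhibitor of the kinase GCN2, was at 12.3 and 18.1 CPM for WT against 78.8 and 43.2 CPM for KO at 25 dpp. The KO libraries lay apart from each other and both lay above WT, with 2.00 ± 0.32 log2 (adjusted p = 0.0015) and 0.68 log2 at 19 dpp (adjusted p = 0.151). Inpp5f, a phosphoinositide phosphatase gene, was at 52.7 and 33.3 CPM for WT against 33.9 and 42.3 CPM for KO at 19 dpp, and at 13.4 and 15.4 CPM for WT against 41.3 and 42.2 CPM for KO at 25 dpp. The groups overlapped at 19 dpp and were apart at 25 dpp, with 1.53 ± 0.24 log2 (adjusted p = 0.00132). Sertoli-scaled at 25 dpp, Impact was at 0.58 log2 (adjusted p = 0.0615) and Inpp5f at 0.12 log2 (adjusted p = 0.688), neither called. Grb10, an adaptor of the insulin receptor, was at 57.0 to 88.5 CPM and was not called between genotypes (0.21 and −0.06 log2), and its neighbour Ddc had 0.390 to 1.16 CPM. Zdbf2, whose germline mark differs from its somatic one, was at 62.4 to 115 CPM with −0.48 log2 at 19 dpp (adjusted p = 0.0575) and −0.28 log2 at 25 dpp (adjusted p = 0.142).

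Several of these genes lie within another gene or host one, and the members of a pair are given together. Zrsr1, a splicing factor gene made from a retrotransposed copy, was at 14.4 and 18.6 CPM for WT against 37.6 and 34.0 CPM for KO at 25 dpp and rose by 1.11 ± 0.19 log2 (adjusted p = 0.00201), which turned to −0.30 log2 when Sertoli-scaled. Its host Commd1, not a member of the list, was at 43.9 and 40.0 CPM for WT against 12.9 and 16.4 CPM for KO. Commd1 fell by 1.52 on the log2 scale (adjusted p = 0.00113). In the annotation this pair shares 412 exon bases on opposite strands, 9.2% of those of Zrsr1. Without the strand setting reads there cannot be told apart. Nap1l5 rose by 1.92 ± 0.39 log2 (adjusted p = 0.00364), from 0.436 and 0.439 CPM to 1.87 and 1.46 CPM, and its host Herc3 rose by 1.35 log2 (adjusted p = 0.00131). Sertoli-scaled, Nap1l5 was at 0.49 log2 (adjusted p = 0.299). Nnat, between 0.673 and 4.51 CPM, was not called at either age, whereas its host Blcap rose by 0.71 log2 at 25 dpp (adjusted p = 0.00362).

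Trappc9, a subunit of a vesicle-tethering complex, hosts the noncoding RNA Peg13. Its level was 33.1 and 51.8 CPM for WT against 44.5 and 49.7 CPM for KO at 19 dpp, and 143 and 114 CPM for WT against 45.1 and 43.0 CPM for KO at 25 dpp. Only the WT libraries at 25 dpp were high, and KO fell there by 1.55 ± 0.23 on the log2 scale (adjusted p = 0.00102). Peg13 was at 8.79 to 17.1 CPM and was not called (0.73 log2, adjusted p = 0.0771, and −0.18 log2, adjusted p = 0.559). H13, the signal peptide peptidase gene that hosts the retrogene Mcts2, was at 48.8 and 60.5 CPM for WT against 81.9 and 80.2 CPM for KO at 19 dpp, and at 80.7 and 75.3 CPM for WT against 49.96 and 62.6 CPM for KO at 25 dpp. It rose by 0.57 ± 0.16 log2 at 19 dpp (adjusted p = 0.0443) and fell by 0.47 ± 0.16 on the log2 scale at 25 dpp (adjusted p = 0.0357). Both calls were fragile, with −0.28 log2 at 19 dpp when Sertoli-scaled and a fall of 0.002 at 25 dpp with total counts. Mcts2 was high only in WT at 25 dpp, with 40.6 and 28.0 CPM against 9.41 and 10.3 CPM in KO, a fall of 1.80 on the log2 scale (adjusted p = 0.000812).

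**Figure D4:**
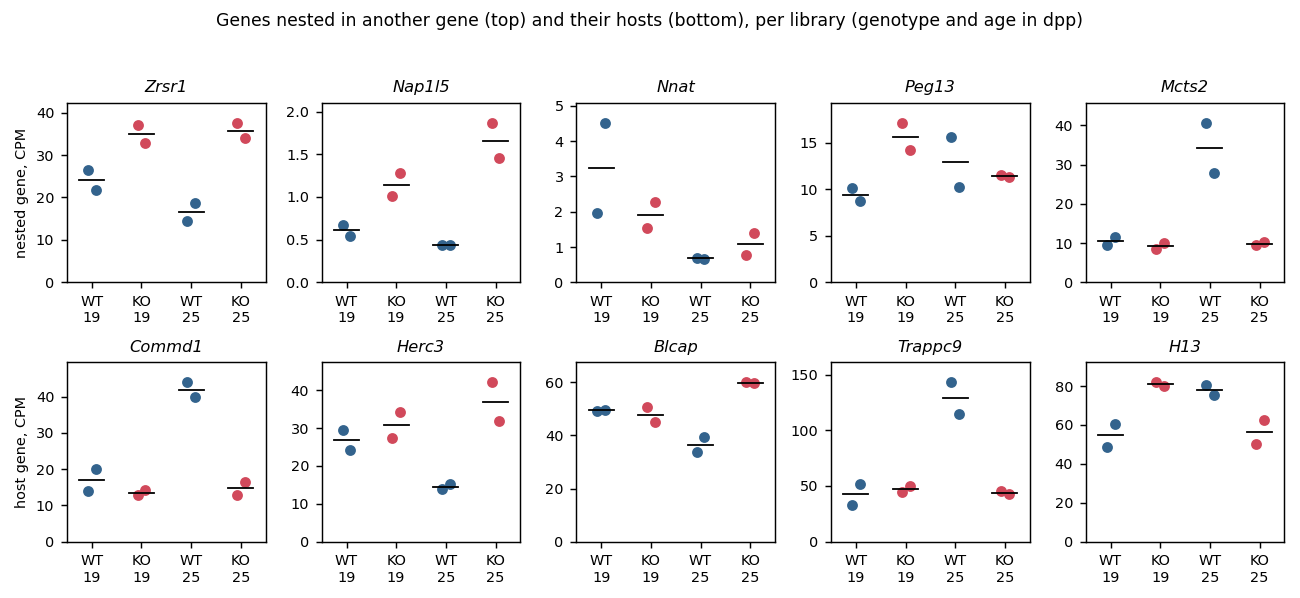
CPM per library of 5 genes nested in another gene (top row) and of their hosts (bottom row), with WT in blue and KO in red and group means as lines. At 25 dpp Zrsr1 is higher and Commd1 lower in KO, while Nap1l5 and Herc3 are both higher in KO.

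The change of the KO effect between the ages was tested as an interaction. It was called for 7 of the 41 genes, 3 toward a higher and 4 toward a lower level in KO at 25 dpp, where 7.68% and 11.4% of all tested genes were called. Neither share among the 41 was above that over all genes. Inpp5f (1.71 log2, adjusted p = 0.0156), Igf2r (1.30 log2, adjusted p = 0.0184) and Peg3 (1.22 log2, adjusted p = 0.0349) had the larger KO effect at 25 dpp. Slc22a18 (−4.65 log2, adjusted p = 0.00522), Asb4 (−3.10 log2, adjusted p = 0.0476), Trappc9 (−1.70 log2, adjusted p = 0.0133) and H13 (−1.04 log2, adjusted p = 0.023) had the lower one. Without the first KO library at 19 dpp, or the first at 25 dpp, 1 gene was called. The number was 2 without the second KO library at 19 dpp, 3 without the second KO library at 25 dpp, 4 without the first WT library at 19 dpp and 11 without the second WT library at 25 dpp, and over all genes it ran from 1117 to 5624 in these fits.

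The ages were compared within each genotype. In WT 7 of the 41 rose and 22 fell from 19 to 25 dpp, where 60.3% of all tested genes were called, 34.9% up and 25.4% down, with a median of −0.71 log2 against 0.01 over all genes. In KO 2 rose and 10 fell, where 10.2% and 8.87% of all genes did so, with a median of −0.24 log2. Sertoli-scaled, the WT counts turned to 13 up and 3 down, where 49.3% and 2.06% of all genes were called, and the medians to 0.12 log2 in WT and 0.02 log2 in KO. The risers in WT numbered 3 without the first WT library of either age, and 4 without the second WT or the first KO library at 19 dpp, with at least 6488 risers over all genes in each of these fits. Without the second KO library at 25 dpp or the first at 19 dpp edgeR called 0 of the 41 genes down in KO (259 and 14 over all genes), with 10 at an unadjusted p under 0.05 in each case, and 4 without the other KO library of either age (459 and 696 over all genes). With the same libraries left out it called at most 1 gene up in KO. The comparison of WT ages and that of genotypes at 25 dpp share the WT libraries at 25 dpp, so their values stand side by side only.

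With age in WT, Slc22a18 rose by 4.72 ± 0.34 log2 (adjusted p = 0.000413), Asb4 by 5.43 log2 (adjusted p = 0.000658) and Trappc9 by 1.60 log2 (adjusted p = 0.00134). Zim1 fell by 3.29 on the log2 scale in WT (adjusted p = 0.00152) and by 1.52 in KO (adjusted p = 0.0439). Mest fell by 1.54 in WT (adjusted p = 0.00672) and by 2.63 in KO (adjusted p = 0.00764). Igf2r fell by 1.20 in WT (adjusted p = 0.00199), with 0.11 log2 in KO (adjusted p = 0.749), and Peg3 by 1.53 in WT (adjusted p = 0.00159), with −0.30 log2 in KO (adjusted p = 0.38). Nespas rose in KO by 1.30 ± 0.31 log2 (adjusted p = 0.0283), with 0.08 log2 in WT (adjusted p = 0.84).

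Per kilobase of exon, the order of the most abundant genes differed between the groups. In WT at 19 dpp Nap1l4 (61.5 ± 0.286 CPM per kb, SD, n = 2) and Cd81 (56.0 ± 11.7) led and did not differ beyond their spread, followed by Gnas (33.3 ± 0.00793), Copg2 (33.3 ± 2.46) and Peg10 (31.6 ± 2.65), which did not differ beyond their spread either. In KO at that age Cd81 (102 ± 2.88) came first, then Peg10 with 67.8, Gnas with 59.0 and Nap1l4 with 49.8 CPM per kb. At 25 dpp Nap1l4 led in both genotypes, with 78.6 CPM per kb in WT and 57.6 in KO. These lengths assume that all annotated exons are used.

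**Figure D5:**
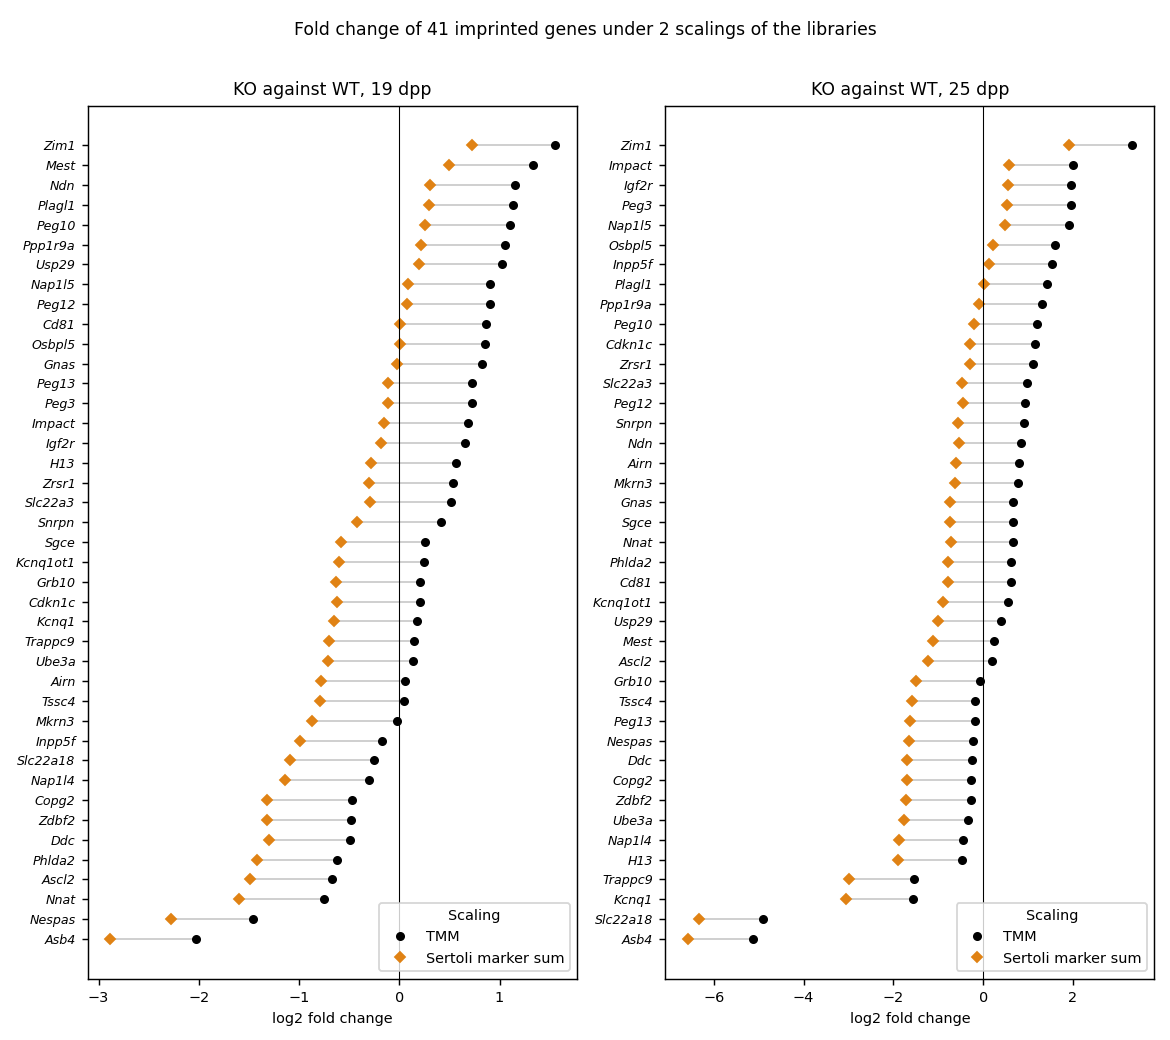
Log2 fold change of KO against WT for the 41 tested imprinted genes under TMM scaling (black circles) and relative to the summed Sertoli markers (orange diamonds), at 19 dpp (left) and 25 dpp (right), each panel sorted by the TMM value. Every orange diamond lies left of its black circle, and at 25 dpp Zim1 stays on the positive side at 1.91 log2.

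Set beside the 8 imprinted genes with counts whose domains are methylated in sperm, the imprinted genes outside such domains had the lower median at 19 dpp. At 19 dpp 4 of those 8 rose and the rest were not called, with a median of 1.12 log2, led by Dlk1 (2.32), H19 (1.84), Meg3 (1.62) and Rian (1.30). At 25 dpp 3 rose and 2 fell with a median of 0.64 log2, near the 0.66 log2 of the 41 genes. The difference between these lists was not tested. Of 11 tested factors linked to imprint control, 5 fell at 19 dpp, Ctcfl among them (−1.80 log2), and the rest were not called. At 25 dpp 5 rose and 4 fell. Zfp57 (−2.15 log2) and Trim28 (−0.88 log2) were then among the fallers, and Ctcfl (1.43 log2) and Zfp445 (0.61 log2) among the risers. Leydig markers, 12 in number, summed to 256 to 711 CPM in WT and 943 to 965 CPM in KO at 19 dpp, and to 525 to 688 and 238 to 284 CPM at 25 dpp. Of the 11 tested, only Scarb1 was called at 19 dpp (1.32 log2), and at 25 dpp Scarb1 rose (0.52 log2) and 4 fell. Scarb1 made up 155 of the 238 CPM in the first KO library at 25 dpp. The WT libraries at 19 dpp were uneven, with Cyp11a1 at 3.15 and 73.6 CPM. Of 10 interstitial stroma markers 7 rose at 19 dpp, and 6 rose and Col3a1 fell (−1.07 log2) at 25 dpp, with summed levels of 2060 to 2160 CPM in WT and 3390 to 4000 CPM in KO at 19 dpp and 680 to 915 and 994 to 1080 CPM at 25 dpp. No Sertoli or stroma marker was at 0 in any group. The part of Sertoli, stromal and germ cell content in the results for the imprinted genes was not tested.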

How the data were processed

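RNA of whole testis was made into stranded mRNA libraries, per the labels' protocols. Reads were aligned with STAR 2.7.0a to mm10 and counted with featureCounts 1.5.1, per the submitters' processing notes; the strand setting, the treatment of multiply aligned reads and the annotation are not given in the sources used here. The deposited values are raw counts per gene, 1 file per library, as the authors counted them. Each file holds 55292 entries, of which 1205 repeat families were left out. Counts were TMM scaled, filtered with filterByExpr by group and fitted with 1 mean per group in edgeR 4.0.16 (robust quasi-likelihood, R 4.3.3, 4 residual degrees of freedom), with Benjamini-Hochberg adjustment over 23353 genes at 0.05. Each SE was derived from the fold change and its F statistic. Depth was 22515812 to 50445334 gene counts, and floors cover counting error only. SE and SD include the spread between the libraries of a group. The procedure was tested on simulated data.

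Members called between genotypes, or with at least 50 CPM in a group, were described in full, and the other 15 by range. Members and lists were chosen with earlier results of these data known. Positions and exon lengths are those of GENCODE M21, whose assembly GRCm38 equals mm10, and promoters come from RefSeq GRCm38.p6. Alternatives were DESeq2 1.42.0 size factors or its Wald test, total counts or Sertoli markers as scaling, no filter, at least 5 CPM in 2 libraries, a replicate block, and leaving out each library.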

Additional observations from a re-analysis of the deposited data

Results flagged for a closer look

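The difference between the KO effects at 25 and 19 dpp passed the edgeR interaction test for 7 of the 41 imprinted genes, where 19.1% of all tested genes passed. The share among the 41 was not above that over all genes. Each is named here because its effect differed between the ages. The log2 differences were 1.71 for Inpp5f (adjusted p = 0.0156), 1.30 for Igf2r (adjusted p = 0.0184), 1.22 for Peg3 (adjusted p = 0.0349), −1.04 for H13 (adjusted p = 0.023), −1.70 for Trappc9 (adjusted p = 0.0133), −3.10 for Asb4 (adjusted p = 0.0476) and −4.65 for Slc22a18 (adjusted p = 0.00522). Relative to the summed Sertoli markers the call held for Slc22a18 (−5.24 log2, adjusted p = 0.0162), Trappc9 (−2.29 log2, adjusted p = 0.0279) and H13 (−1.61 log2, adjusted p = 0.0419). It was lost there for Igf2r (0.74 log2, adjusted p = 0.104), Peg3 (0.65 log2, adjusted p = 0.128), Inpp5f (1.11 log2, adjusted p = 0.0911) and Asb4 (−3.70 log2, adjusted p = 0.0586). With total counts as scaling the H13 difference was −0.49 log2 (adjusted p = 0.142). These fits used all 8 libraries. With single libraries left out, every call but that of Slc22a18 was lost in some fit. The differences then ran from −2.05 to −1.40 log2 for Trappc9 and from −1.20 to −0.87 log2 for H13. For Slc22a18 they ran from −4.87 to −4.44 log2.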

How the results depend on the processing

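Scaling to the summed Sertoli markers gave 0 risers and 11 fallers at 19 dpp (82 and 9545 over all genes). At 25 dpp it gave 3 risers and 20 fallers (252 and 16129 over all genes). It gave 3 differences of KO effects (2702 over all genes). With age in WT it gave 13 risers and 3 fallers (11523 and 481 over all genes). With age in KO it gave 0 risers (3 at an unadjusted p under 0.05) and 3 fallers, with 1520 and 596 over all genes. Total counts gave 4 fallers at 19 dpp (3414 over all genes) and 3 fallers at 25 dpp (7105). They also gave 16 differences (7515 over all genes, against 4464 in the main fit) and 3 risers with age in WT (6295). The DESeq2 Wald test gave 5 fallers at 19 dpp (4450 over all genes), 15 differences (7884) and 5 risers with age in KO (4289). No filter gave 1 riser with age in KO (2489 over all genes). Leaving out 1 library gave 0 to 13 risers and 0 to 3 fallers at 19 dpp, 13 to 18 risers and 3 to 5 fallers at 25 dpp, and 1 to 11 differences. It gave 3 to 7 risers and 15 to 20 fallers with age in WT, and 0 to 2 risers and 0 to 12 fallers with age in KO. The lone library left in a group is assumed to vary like the others.

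Relative to Sertoli markers the sign turned at 19 dpp for Igf2r (−0.18 log2), Gnas (−0.019) and H13 (−0.28). At 25 dpp it turned for Peg10 (−0.20), Sgce (−0.74), Gnas (−0.74), Snrpn (−0.55), Ndn (−0.54), Mkrn3 (−0.62), Cdkn1c (−0.29), Cd81 (−0.79), Zrsr1 (−0.30) and Ppp1r9a (−0.090). With total counts Nap1l4 turned to 0.018 at 25 dpp. These scalings move all genes by construction; no other cause was tested.

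The correlation of replicate deviations between groups ran from −0.213 to 0.599 over 13270 genes. It was highest between WT at 19 dpp and KO at 25 dpp. Numbers may be arbitrary within a batch, so these values cannot show whether the same replicate numbers mark pairs. With the replicate number as a block, 10 imprinted genes rose and 2 fell at 19 dpp (2003 and 2960 over all genes). At 25 dpp 19 rose and 5 fell (5961 and 8762 over all genes). In that fit 6 differences were called (4348 over all genes), and 1 gene rose and 10 fell with age in KO (2342 and 2006). The low genes Usp29 and Slc22a3 were not called between genotypes. How large a difference could be called at their level and this depth was not tested.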
